A study of Homo sapiens with 18 samples.

Results

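The mitotic genes described here are 38 genes that encode mitotic kinases and cyclins, the spindle checkpoint, the trigger of anaphase, the chromosomal passenger complex, the centromere and kinetochore, spindle assembly factors, mitotic chromosome proteins and cytokinesis factors. They were chosen by name, and all 38 were found among the 60623 genes of the deposited count table and were among the 18151 genes that passed the filter on low counts. RNA was sequenced from IMR90 cells, wild-type primary human lung fibroblasts, in 6 groups of 3 libraries. Prolif_DMSO, Prolif_RG7388 and Prolif_HDM201 were proliferating cells given the solvent DMSO or a compound, and IR_DMSO, IR_RG7388 and IR_HDM201 were irradiated, senescent cells given the same agents. In irradiated cells DMSO or compound was present from day 4 until harvest at day 11, counted from irradiation, while the sources used here give no treatment time for proliferating cells. RG7388 (idasanutlin) and HDM201 (siremadlin) block MDM2, the ligase that targets p53 for degradation. The study used them at different doses, so differences between them are differences between these treatments and not a ranking of the compounds.

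Mitotic genes are transcribed in a wave in G2 and M phase and are kept low in resting cells. When p53 is active, it raises p21 (CDKN1A), an inhibitor of cyclin-dependent kinases, and the retinoblastoma-family DREAM complex then holds the promoters of these genes shut. DREAM, and the activating MYB-MuvB and FOXM1 complexes that replace it in cycling cells, reach these promoters through a short element, the cell cycle genes homology region (CHR), which often lies near CCAAT boxes bound by NF-Y.

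Stretches of 120 bases upstream of the RefSeq transcription start are shown for 6 members, because they carry these elements in genes that differed between the compounds (CCNB2, BUB1B, CDC20, CENPA) and in others that were not called (INCENP, ESPL1). They are from RefSeq on GRCh38.p14, given on the plus strand, which is the coding strand of all 6, and were chosen after the values were seen. Capitals mark TTTGAA, the core of the CHR, and CCAAT, each searched on both strands, so that CCAAT on the other strand reads ATTGG; the pair can share an end base. RefSeq and GENCODE 44 give the same start for CDC20 and ESPL1. The last bases of the CCNB2, BUB1B and INCENP stretches lie after the start of the GENCODE gene, and the CENPA stretch lies wholly within the GENCODE gene, which starts upstream of it.
CDC20, chr1:43358861-43358980: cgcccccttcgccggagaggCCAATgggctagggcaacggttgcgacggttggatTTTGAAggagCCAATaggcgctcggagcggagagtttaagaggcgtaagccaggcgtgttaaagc
CCNB2, chr15:59105026-59105145: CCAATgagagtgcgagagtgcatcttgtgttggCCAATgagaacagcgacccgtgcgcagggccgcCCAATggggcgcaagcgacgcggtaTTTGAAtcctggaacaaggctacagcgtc
BUB1B, chr15:40160949-40161068: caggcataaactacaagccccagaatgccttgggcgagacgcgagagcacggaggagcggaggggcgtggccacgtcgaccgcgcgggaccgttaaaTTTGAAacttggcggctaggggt
CENPA, chr2:26785936-26786055: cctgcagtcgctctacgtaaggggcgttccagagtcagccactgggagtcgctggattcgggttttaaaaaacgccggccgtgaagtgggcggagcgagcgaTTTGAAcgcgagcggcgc
INCENP, chr11:62123891-62124010: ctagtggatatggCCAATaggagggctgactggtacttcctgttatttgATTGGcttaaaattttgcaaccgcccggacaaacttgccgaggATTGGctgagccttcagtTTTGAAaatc
ESPL1, chr12:53268179-53268298: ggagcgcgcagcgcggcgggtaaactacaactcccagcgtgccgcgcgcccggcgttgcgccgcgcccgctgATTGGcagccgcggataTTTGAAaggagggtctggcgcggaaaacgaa

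In CDC20 the TTTGAA began 65 bases before the start and lay between CCAAT boxes at 100 and 55 bases. In CCNB2 a row of 3 CCAAT boxes at 120, 87 and 54 bases stood upstream of a TTTGAA at 29 bases. BUB1B and CENPA each had a TTTGAA, at 23 and 18 bases, and no CCAAT in the stretch shown. INCENP had a TTTGAA at 10 bases and CCAAT boxes at 107, 71 and 28 bases, and ESPL1 had them at 31 and 48 bases, so that both elements were also present in genes that were not called. RefSeq windows of 300 bases, from 250 before to 50 after each start, were at hand for 30 of the 38 members; AURKA, BIRC5, CENPM, PBK, RACGAP1, TPX2, TTK and UBE2C had no entry. TTTGAA was found in a window of 24 of these 30 genes (80%), against 13.9% of the 11692 tested genes with an entry and 18.2% of all 27305 genes with one. CCAAT was found in 26 (86.7%), against 42.6% of tested genes, and both in 20 (66.7%), against 7.49%. Among 93 genes with an entry in the other gene lists described below, 38.7% had TTTGAA, 58.1% CCAAT and 21.5% both. Within the members, TTTGAA was present in 10 of the 13 with a window that were called lower with RG7388 than with HDM201 and in 14 of the 17 that were not. These matches describe letters and not bound sites.

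Libraries held 21609198 to 66647700 counted reads. Levels are given as CPM, each count relative to the total of its library as adjusted by the trimmed mean of M values (TMM), and changes are log2 fold changes from edgeR with their standard errors (SE), and p-values are adjusted over all 18151 genes. The fibroblast markers COL1A1 and VIM were high, from 5240 to 27900 CPM and from 2740 to 7220 CPM. EPCAM of epithelium reached at most 1.32 CPM, PTPRC of leukocytes 0.395 CPM and CDH5 of endothelium 0.191 CPM. EPCAM, PTPRC and CDH5 are single markers of their types and do not stand for the others, whose levels are not given here. All 10 fibroblast markers passed the filter on low counts, as did 2 of 6 epithelial, 5 of 6 endothelial and 1 of 6 leukocyte markers. The leukocyte marker that passed was called higher in IR_DMSO than in Prolif_DMSO (log2 fold change 3.01). All 38 members were expressed in proliferating cells. On the FPKM scale, which corrects for transcript length, the highest Prolif_DMSO means were those of UBE2C (201), CCNB1 (168), PTTG1 (152), CDC20 (128) and PRC1 (122), and the lowest was that of ESPL1 (11.4). Summed over the members, counts made up 5560 ± 99.8 CPM in Prolif_DMSO, 4120 ± 293 in Prolif_RG7388, 4470 ± 468 in Prolif_HDM201, 609 ± 11.7 in IR_DMSO, 352 ± 50.1 in IR_HDM201 and 248 ± 7.5 in IR_RG7388 (SD, n = 3).

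**Figure D1:**
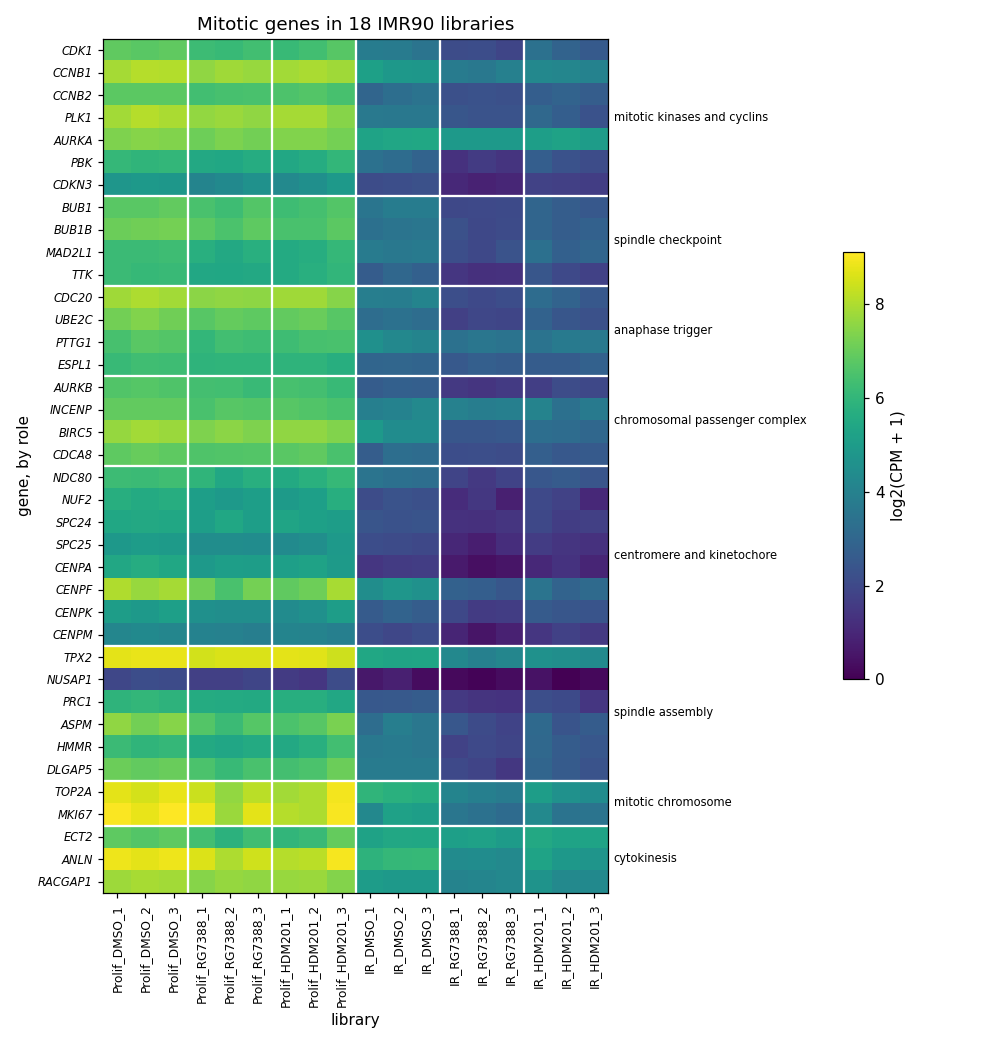
Heat map of log2(CPM + 1) for 38 mitotic genes (rows, by role) in 18 libraries (columns, 3 per group); brighter colours are higher levels. Each gene is lower in every irradiated library than in every proliferating one, and within the irradiated libraries the IR_RG7388 columns are darkest and IR_DMSO columns brightest for 37 of 38 genes by group means.

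Irradiation lowered every member in the absence of compound. All 38 were called lower in IR_DMSO than in Prolif_DMSO, with a median log2 fold change of -3.21, where 25.3% of all genes tested were called lower and the median of all genes was 0.05. CENPA, the histone H3 variant that marks centromeres, fell most (-4.5, SE 0.16, edgeR adjusted p = 4.09e-16), from 42.9, 48.4 and 42 CPM in the Prolif_DMSO libraries to 1.74, 1.96 and 2.18 CPM. PLK1, the kinase of centrosome maturation and mitotic entry, fell by 4.41 on the log2 scale. At the other end stood ECT2, the exchange factor that turns on RhoA for the cleavage furrow, with a change of -1.42 (SE 0.19, edgeR adjusted p = 3.15e-06), and AURKA, the centrosomal Aurora kinase, with -2.05. The median member kept 10.8% of its Prolif_DMSO mean, from 4.42% for CENPA to 37.4% for ECT2. In bulk RNA, fewer cells in mitosis and less RNA per cell cannot be told apart.

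Both compounds lowered the mitotic genes further in irradiated cells. RG7388 lowered 36 of 38 (median -1.63, range -2.38 to -0.16), where 11.9% of all genes were called lower against IR_DMSO and the median of all genes was -0.03. HDM201 lowered 32 of 38 (median -0.83, range -1.52 to -0.01), where 11.3% were called lower and the median of all genes was -0.02. No member was called higher with either compound. The comparisons share the IR_DMSO libraries. BIRC5 (survivin) had the largest fall in each, by 2.38 with RG7388 (SE 0.13, edgeR adjusted p = 5.95e-12) and by 1.52 with HDM201 (SE 0.13, adjusted p = 7.81e-09). INCENP and ECT2 were called with neither compound. ESPL1, NUF2, CENPK and NUSAP1 were called with RG7388 only, at adjusted p = 0.0559, 0.119, 0.219 and 0.111 with HDM201. Leaving out 1 library ended the RG7388 call of ESPL1 or NUSAP1 in some fits and the HDM201 call of AURKA, CDCA8, CENPA, ASPM or MKI67 in others, and the counts ran from 34 to 36 and from 28 to 33.

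The median level left, as a percent of the Prolif_DMSO mean, was 5.54% in IR_HDM201 and 3.26% in IR_RG7388. CENPA was lowest in IR_RG7388 at 0.969% and PLK1 lowest in IR_HDM201 at 2.29%, while ECT2 kept 31.1% and 37.1%. By role, the 4 checkpoint genes kept a median of 9.9% in IR_DMSO, 4.88% in IR_HDM201 and 2.54% in IR_RG7388, and the 3 cytokinesis genes 14.1%, 9.13% and 7.5%. Means ran in the order IR_DMSO, IR_HDM201, IR_RG7388 in 37 of 38 members on the CPM scale, INCENP being the exception, and the libraries of the 3 groups were wholly separate in 27. The shares of all genes tested with this order or this separation were not computed, so these counts have no background beside them.

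**Figure D2:**
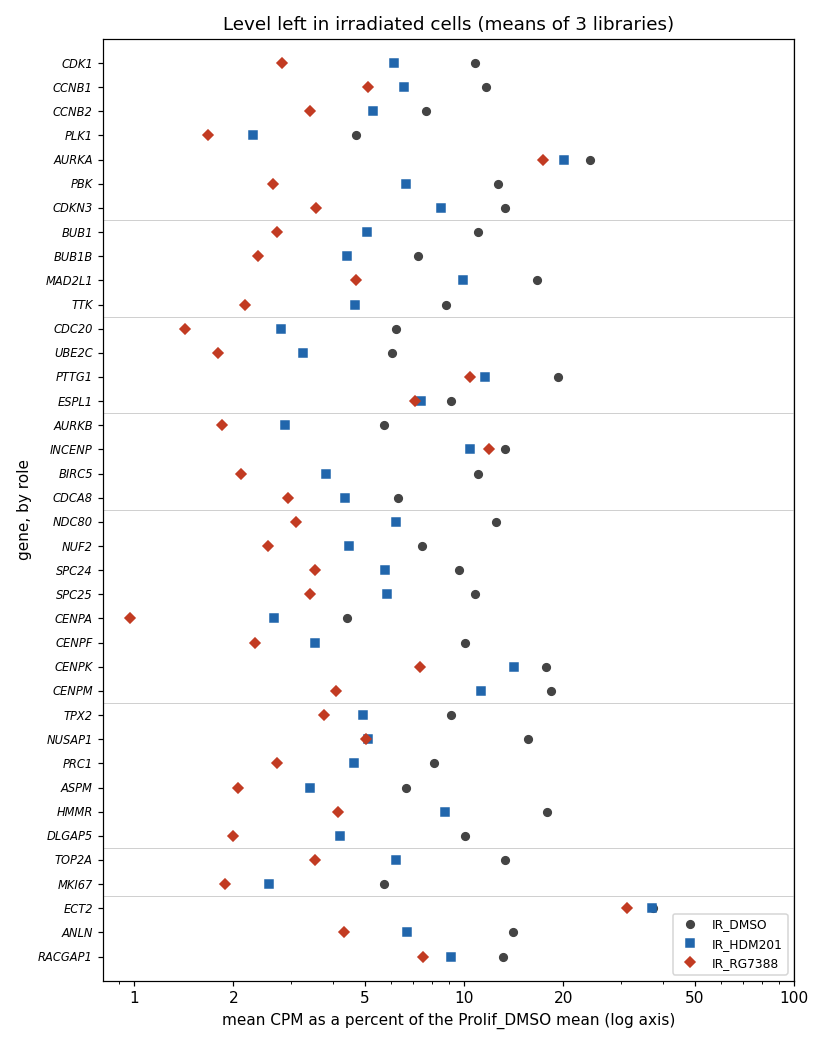
Mean CPM of each gene in irradiated cells as a percent of its Prolif_DMSO mean, on a log axis, for IR_DMSO (circles), IR_HDM201 (squares) and IR_RG7388 (diamonds), each the mean of 3 libraries. Medians over the genes are 10.8%, 5.54% and 3.26%, and INCENP is the gene whose RG7388 and HDM201 means are in the opposite order on this scale, which its FPKM values do not share.

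The direct comparison of the compounds in irradiated cells gave 18 of 38 members lower with RG7388 than with HDM201 and none higher. Over all genes tested, 41 (0.226%) were called lower and 0 higher, so that the members made up 18 of the 41 calls. The members' median log2 fold change was -0.8, against 0 over all genes, with a range from -1.41 for PBK to 0.17 for INCENP, and 37 of 38 estimates were below 0. The unadjusted p was under 0.05 for 32, and for 7.24% of all genes tested in either direction. In 29 members all IR_RG7388 libraries lay below all IR_HDM201 libraries, which was so for 9.5% of all genes tested.

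Most of these calls were lost when 1 library was left out. Without IR_HDM201 replicate 1, 1 member (CENPM) and 2 genes in all were called, and the median of the members was -0.6. That library was the highest of its group for 30 of the 38 members, with a members' sum of 408 CPM against 334 and 313, and it was the deepest of its group, with 62011698 reads against 22075425 and 21609198; the part of depth in its level was not tested. The calls of CDKN3, NDC80 and CENPA were lost as well, although it was close to its group in the first and between the other two libraries in NDC80 and CENPA. With the 2 groups fitted on their own, no member and no gene was called by edgeR, and the members' median was again -0.8. Without IR_RG7388 replicate 2, 11 members were called. The DESeq2 Wald test called 22 members, and its count over all genes is not given here.

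**Figure D3:**
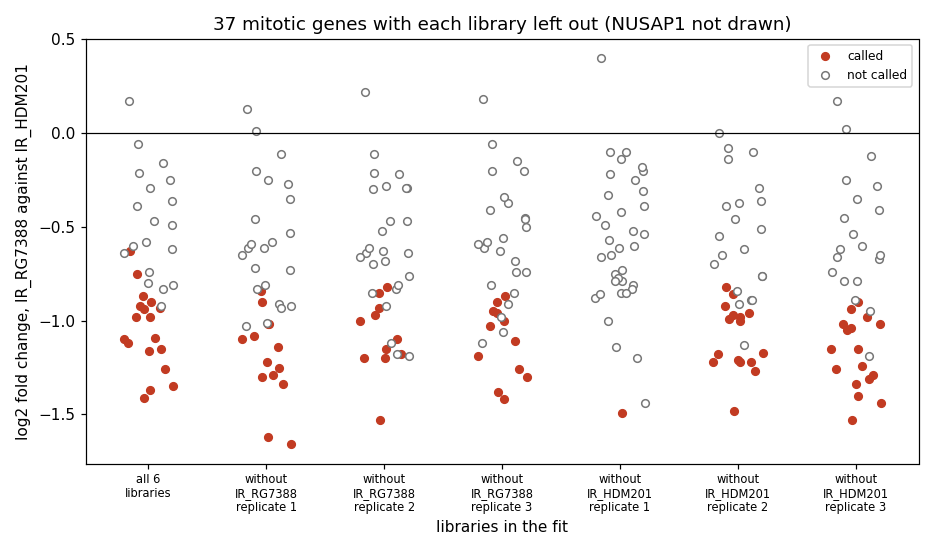
Log2 fold change of IR_RG7388 against IR_HDM201 for 37 mitotic genes (points), with all libraries and with each of the 6 libraries left out in turn; filled points were called at an adjusted p under 0.05, and NUSAP1 is not drawn because of its low counts. Without IR_HDM201 replicate 1 many points move up, CENPM moves down and is the 1 that stays called, and most stay below 0.

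Among kinases, cyclins and their regulators, 4 of 7 were called lower with RG7388 (median of the 7, -0.63). PBK, a mitotic kinase, stood at 1.46, 1.98 and 1.58 CPM in the IR_RG7388 libraries and at 5.5, 3.87 and 3.38 in IR_HDM201, where IR_DMSO held 9.59, 8.2 and 6.36. Its difference was the largest of the members (-1.41, SE 0.21, edgeR adjusted p = 0.00344) and the 3 groups did not overlap. CDKN3, a phosphatase that acts on cyclin-dependent kinases, stood at 1.06, 0.835 and 0.985 CPM with RG7388 and 2.46, 2.28 and 2.18 with HDM201 (-1.26, SE 0.2, edgeR adjusted p = 0.00344). HDM201 replicate 1 was thus close to its group here, yet the adjusted p without it was 0.0656. CDK1, the kinase that drives entry into mitosis, stood at 3.38, 3.4 and 2.7 CPM with RG7388 and 9.37, 6.5 and 4.89 with HDM201 (-1.16, SE 0.19, edgeR adjusted p = 0.00559). Of its B-type partners, CCNB2 was called, at 3.71, 3.9 and 3.71 CPM against 5.58, 6.5 and 5.42 (-0.63, SE 0.13, edgeR adjusted p = 0.036), although leaving out any 1 of the 6 libraries ended this call. CCNB1 (-0.36), PLK1 (-0.49) and AURKA (-0.21) were not called, and PLK1 libraries overlapped.

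All 4 checkpoint genes, whose products hold back anaphase until every kinetochore is attached, were called lower with RG7388 (median -1.02). MAD2L1, the checkpoint subunit that binds CDC20, stood at 3.51, 2.94 and 3.97 CPM with RG7388, at 9.23, 5.97 and 6.8 with HDM201 and at 12.9, 11.5 and 12.4 with DMSO (-1.1 between compounds, SE 0.16, edgeR adjusted p = 0.00344). BUB1B, which encodes the checkpoint protein BUBR1, stood at 3.78, 2.91 and 3.19 CPM against 6.89, 5.4 and 6.13 (-0.9, SE 0.14, edgeR adjusted p = 0.00344); in GENCODE 44, 10.2% of its exon bases are shared with PAK6 on the same strand. In both genes every RG7388 library was below every HDM201 library. The kinases BUB1 and TTK, which build the signal at kinetochores, differed by -0.94 (edgeR adjusted p = 0.005) and -1.15 (adjusted p = 0.005). BUB1 ranged from 2.89 to 3.14 CPM with RG7388 and from 4.71 to 6.84 with HDM201, and TTK from 1.42 to 1.68 and from 2.35 to 4.42. Without HDM201 replicate 1 the adjusted p of the 4 genes ran from 0.0656 to 0.16.

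Of the genes that set off anaphase, CDC20 and UBE2C were called and PTTG1 and ESPL1 were not. CDC20, the activator of the anaphase-promoting complex, stood at 3.52, 3.03 and 3.47 CPM with RG7388 and at 8.3, 6.46 and 4.71 with HDM201 (-0.98, SE 0.16, edgeR adjusted p = 0.005). UBE2C, the ubiquitin-conjugating enzyme that works with that complex, stood at 2.33, 2.85 and 2.72 CPM against 6.23, 4.35 and 3.82 (-0.92, SE 0.15, edgeR adjusted p = 0.005). HDM201 replicate 1 was the high library in both. ESPL1 (separase, the protease that cuts cohesin) held 4.81 to 5.75 CPM with RG7388 and 5.21 to 6.04 with HDM201, with a 95% interval of the log2 difference from -0.3 to 0.18. PTTG1 (securin, the inhibitor of separase) differed by -0.16 (interval -0.44 to 0.12), and libraries of the groups overlapped in both.

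In the chromosomal passenger complex, which corrects faulty attachments and guides cytokinesis, the members differed among themselves. BIRC5 stood at 4.35, 4.39 and 4.67 CPM with RG7388 and 8.83, 8.26 and 7.2 with HDM201, where DMSO held 28.8, 20.7 and 20.4 (-0.87 between compounds, SE 0.14, edgeR adjusted p = 0.00344). CDCA8 (borealin) stood at 3.42, 3.53 and 3.37 CPM against 5.78, 4.7 and 4.93 and was not called (-0.6, SE 0.16, edgeR adjusted p = 0.181), as was AURKB, the complex's kinase (-0.58, adjusted p = 0.192), although libraries did not overlap in either. INCENP, its scaffold, stood at 15.1, 13.5 and 14.1 CPM with RG7388, within the 9.14 to 15.9 of HDM201 and near the 14.2 to 18.5 of DMSO. The INCENP estimate between compounds was 0.17 (interval -0.13 to 0.47) on counts and -0.06 on log2(FPKM + 1) by limma, so its direction depended on the scale. FPKM of INCENP ranged from 3.24 to 3.43 with RG7388 and from 2.56 to 4.31 with HDM201.

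**Figure D4:**
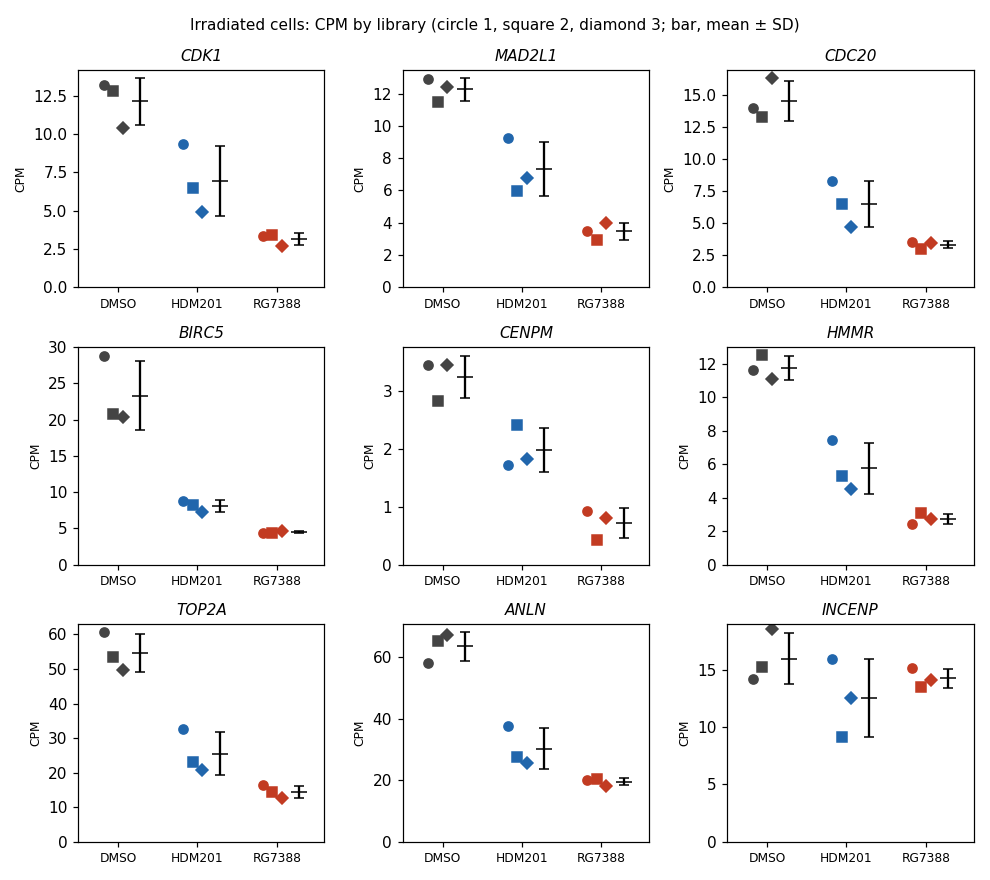
CPM of 9 mitotic genes in each irradiated library (marker shape, replicate number) with the mean and SD of 3 libraries per group, on axes from 0. CDK1, MAD2L1, CDC20, BIRC5, CENPM and HMMR were called lower with RG7388 than with HDM201, TOP2A and ANLN were lower in every library without being called, and INCENP libraries overlap.

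Of 8 centromere and kinetochore genes, 5 were called lower with RG7388 (median of the 8, -0.92). CENPM, a subunit of the centromere network on CENPA chromatin that lies at chr22:41938737-41947152 (hg38), stood at 0.919, 0.433 and 0.804 CPM with RG7388 and 1.72, 2.42 and 1.82 with HDM201 (-1.37, SE 0.21, edgeR adjusted p = 0.00344). HDM201 replicate 1 was the lowest of its group for CENPM, and without it the difference was -1.49 (edgeR adjusted p = 0.0215). CENPM counts were low, at 14 to 60 per RG7388 library and 41 to 113 per HDM201 library. CENPA stood at 0.567, 0.309 and 0.415 CPM against 1.08, 1.54 and 0.933 (-1.35, SE 0.23, edgeR adjusted p = 0.005), on 10 to 37 counts per RG7388 library and 21 to 71 per HDM201 library; 7.08% of its exon bases are shared with SLC35F6 on the same strand. Of the NDC80 complex, which grips microtubules, NDC80 and SPC24 were called (-0.98, edgeR adjusted p = 0.00836, and -0.75, adjusted p = 0.0361). NDC80 ranged from 1.86 to 2.6 CPM with RG7388 and from 4.31 to 5.1 with HDM201, and SPC24 from 1.39 to 1.63 and from 2.15 to 2.9. NUF2 (-0.92, adjusted p = 0.528), whose libraries overlapped, and SPC25 (-0.8, adjusted p = 0.153) completed the complex without a call. CENPK, of the same centromere network as CENPM, differed by -0.93 (edgeR adjusted p = 0.0223), at 2.01 to 2.94 CPM against 4.18 to 5.06. CENPF, a large protein of the outer kinetochore, differed by -0.62 (adjusted p = 0.663).

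For spindle assembly, 2 of 6 genes were called lower with RG7388. HMMR, a microtubule-binding receptor of hyaluronan, stood at 2.44, 3.06 and 2.7 CPM with RG7388 and 7.46, 5.32 and 4.49 with HDM201 (-1.12, SE 0.2, edgeR adjusted p = 0.0139). DLGAP5, which stabilises spindle fibres near chromosomes, stood at 3.06, 2.66 and 1.81 CPM against 6.73, 5.14 and 4.04 (-1.09, SE 0.21, edgeR adjusted p = 0.0279). Against the DMSO level they fell by 2.12 and 2.33 with RG7388, and DLGAP5 stood at 12.8 CPM in each IR_DMSO library. TPX2, which activates AURKA at the spindle, differed by -0.39, PRC1 by -0.81, ASPM by -0.74 and NUSAP1 by -0.34, none of them called. NUSAP1 and PRC1 counts are uncertain: 86.8% and 57.6% of their exon bases are shared with another annotated gene on the same strand in GENCODE 44. Their ratio of CPM per kilobase of exon to FPKM in Prolif_DMSO was 0.0144 and 0.0893, against 0.327 to 1.15 in the other 36 members, and NUSAP1 held 0 to 0.745 CPM in irradiated libraries.

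Neither mitotic chromosome gene and none of the 3 cytokinesis genes was called between the compounds. TOP2A, the topoisomerase that untangles sister chromatids, stood at 16.3, 14.3 and 12.7 CPM with RG7388 and at 32.5, 23.2 and 20.7 with HDM201 (-0.83, SE 0.26, edgeR adjusted p = 0.477). MKI67, the proliferation marker that coats mitotic chromosomes, stood at 10.9, 9.56 and 8.12 CPM against 18.5, 10.1 and 10.3 (-0.47, SE 0.37, edgeR adjusted p = 0.829), with HDM201 replicate 1 far above the others. ANLN, a scaffold of the contractile ring, stood at 20, 20.4 and 18.3 CPM against 37.8, 27.5 and 25.6 (-0.64, SE 0.21, edgeR adjusted p = 0.49). RACGAP1, of the central spindle, stood at 15.9, 16.7 and 18 CPM against 24.6, 18.3 and 18.8 (-0.29, SE 0.12, edgeR adjusted p = 0.602). ECT2 differed by -0.25 (interval -0.64 to 0.14). RG7388 libraries lay below HDM201 libraries in TOP2A, ANLN, RACGAP1 and ECT2 and overlapped them in MKI67.

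In proliferating cells the compounds left most of the mitotic transcripts in place. The median member kept 75% of the Prolif_DMSO mean with RG7388, from 53.6% for CENPF to 86.6% for AURKA, and 80.1% with HDM201, from 68% for MKI67 to 94.5% for AURKA. With RG7388, TTK (-0.7, SE 0.15, edgeR adjusted p = 0.0159) and MAD2L1 (-0.58, SE 0.14, adjusted p = 0.0424) were called lower, where 0.342% of all genes were. All 38 estimates were below 0 (median -0.41), 34 had an unadjusted p under 0.05 (13.1% of all genes, either direction), and in 37 members all RG7388 libraries lay below all DMSO libraries, which was so for 10.6% of all genes. With HDM201, BUB1B was called (-0.53, SE 0.12, edgeR adjusted p = 0.0352), where 0.154% of all genes were, and the members' median was -0.32; 17 members had all libraries below DMSO, against 6.66% of all genes. These comparisons share the Prolif_DMSO libraries. Counts of calls here depended on the fit. Leaving out each of 6 libraries in turn ended the call of MAD2L1 in 6 fits and those of TTK and BUB1B in 5 each. The number of members called then ran from 0 to 1 with RG7388 and from 0 to 15 with HDM201, the highest without Prolif_HDM201 replicate 3, itself the highest of its group for 21 members. With the groups compared fitted on their own, 31 members were called with RG7388 and 0 with HDM201. The share of all genes called in those fits is not given here, so a gain particular to the members is not shown.

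Between the compounds in proliferating cells, 0 of 38 members and 0% of all genes were called by edgeR; the median of the members was -0.12, 31 estimates were below 0, and 2 had an unadjusted p under 0.05, as did 3.56% of all genes. Whether the difference between the compounds differed between states was tested as an interaction. It was called for 0 members and 0% of all genes by edgeR, with a members' median of -0.65, 36 estimates below 0 and 23 with an unadjusted p under 0.05, against 3.77% of all genes. BUB1B had the smallest p, with a difference of -0.9 in irradiated and 0.13 in proliferating cells (interaction -1.02, SE 0.18, edgeR adjusted p = 0.201). The DESeq2 Wald test called 7 members for the interaction, and edgeR without the filter on low counts 8, and the counts over all genes in those fits are not given here. A difference particular to irradiated cells was therefore not shown by the main edgeR fit, and the calls depended on the fit.

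**Figure D5:**
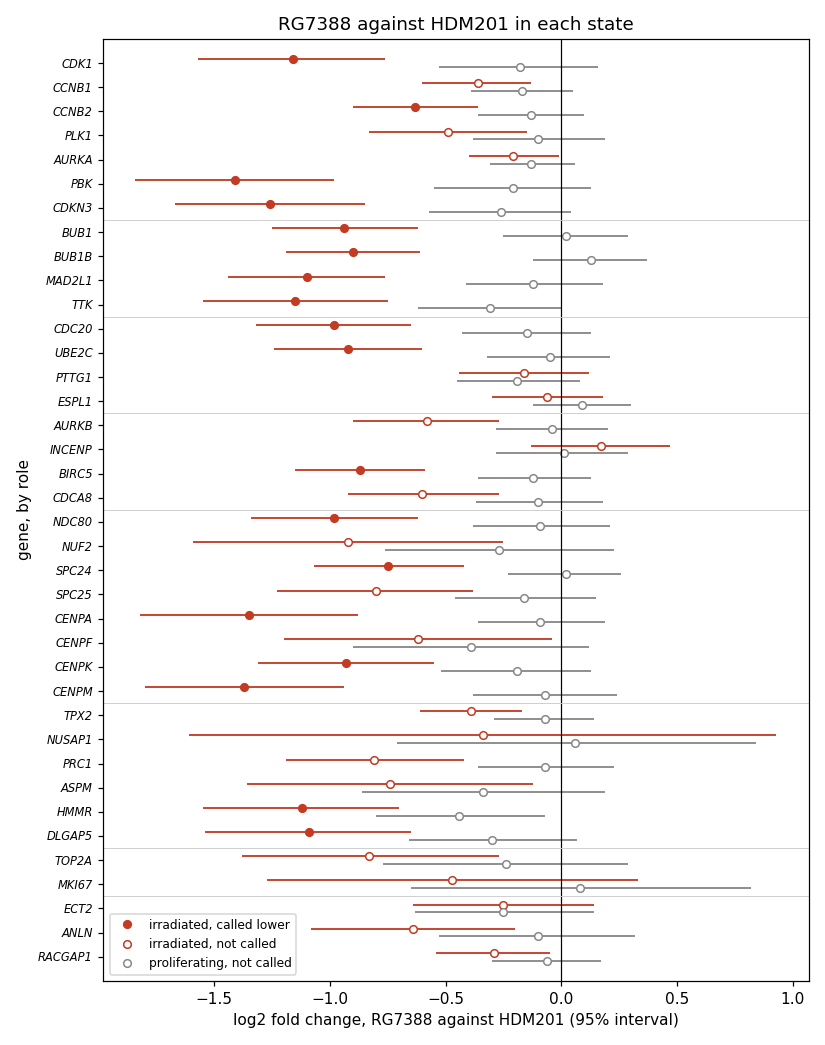
Log2 fold change of RG7388 against HDM201 with its 95% interval for 38 mitotic genes, in irradiated (red) and proliferating (grey) cells, 3 libraries per group; filled points were called at an adjusted p under 0.05. In irradiated cells 37 estimates lie left of 0 and 18 are called, and in proliferating cells 31 lie left of 0 and none is called.

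Other genes of the mitotic machinery were compared between the compounds in irradiated cells in the same way, and differences between these lists and the 38 members were not tested. Of 35 other kinetochore and centromere genes 2 were called lower with RG7388, HJURP, the chaperone that loads CENPA (-0.74, SE 0.13, edgeR adjusted p = 0.00578), and CENPU (-0.72, SE 0.14, adjusted p = 0.0247), with a list median of -0.27. HJURP stood at 4.38, 3.28 and 4.36 CPM with RG7388 and at 7.63, 6.41 and 6 with HDM201. Of 17 other regulators of mitotic entry CCNA2, the A-type cyclin of S and G2 phase, was called (-0.68, edgeR adjusted p = 0.0279; list median -0.41). None of 17 subunits and regulators of the anaphase-promoting complex (median -0.05), 8 condensin subunits (-0.22) or 13 cohesin subunits and loaders (-0.12) was called by edgeR, with 4, 2 and 2 at an unadjusted p under 0.05 in either direction, where 7.24% of all genes were. Irradiation itself had lowered all 8 condensin genes and 34 of the 35 kinetochore genes. Of the 17 anaphase-promoting complex genes 7 were lower and 2 others higher, and of the 13 cohesin genes 5 were lower and 1 other higher, beside 25.3% lower and 26.3% higher among all genes.

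Of 22 DREAM, MuvB and E2F genes that govern mitotic promoters, MYBL2, the MYB subunit of the activating complex, was called lower with RG7388 than with HDM201. It stood at 4.75, 4.36 and 5.34 CPM with RG7388, 8.62, 8.96 and 6.97 with HDM201 and 10.9, 10.7 and 9.8 with DMSO (-0.77 between compounds, SE 0.13, edgeR adjusted p = 0.005). FOXM1 fell against DMSO with both compounds, by 1.58 and 1.12, and was not called between them (-0.45, edgeR adjusted p = 0.632). In a panel of 7 p53 and arrest genes, LMNB1 (lamin B1) was called lower with RG7388 (-0.98, SE 0.16, edgeR adjusted p = 0.005). CDKN1A stood at 2080, 2090 and 2160 CPM in IR_RG7388, above the 1660, 1840 and 1790 of IR_HDM201, without a call (0.26, SE 0.11, edgeR adjusted p = 0.618). In IR_DMSO CDKN1A stood at 1710, 1870 and 1880 CPM, below IR_RG7388 and overlapping IR_HDM201. In proliferating cells it ranged from 222 to 246 CPM with DMSO, 715 to 797 with RG7388 and 508 to 701 with HDM201. MDM2 overlapped between IR_RG7388 and IR_HDM201 (0.01, SE 0.17), and in IR_DMSO it held 169 to 172 CPM, within the 147 to 190 of IR_HDM201. A link between CDKN1A and the mitotic genes was not tested.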

How the data were processed

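RNA-seq data of 18 IMR90 libraries were analysed. The authors aligned reads to hg38 with the 2-pass mode of STAR, made the deposited raw counts with HTSeq and the deposited FPKM values with Cufflinks. The sources used here give neither tool versions nor an annotation release. The 45 pseudoautosomal copies were dropped. Gene IDs matched GENCODE release 44 for 60295 of 60623 genes (99.46%).

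Counts were analysed in R 4.3.3 with edgeR 4.0.16: filterByExpr by group, TMM scaling and a robust quasi-likelihood F test with a mean for each group, fitted to the 18 libraries together with 12 degrees of freedom. Called means an adjusted p (Benjamini-Hochberg) under 0.05. SEs follow from the fold change and F. Labels do not state whether replicates were separate cultures. The study's general statement for cell culture is that a single well of a plate counted as a biological replicate. The p-values therefore measure the spread between these libraries, which may be no more than that between wells. Replicate numbers were checked for pairing: 9 of 45 same-number pairs of libraries had residual correlations over 0.1, and libraries were treated as unpaired.

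The 38 members, the gene lists and the tests were chosen with earlier results of these data known. Per-library values are given for the 2 members with the smallest p in each role and for members whose call was lost on leaving out a library. FPKM was used to compare levels between genes and, with limma 3.58.1 and pseudocounts of 1 and 0.1, as an alternative; DESeq2 1.42.0, other filters, scalings and sample sets were further alternatives. Promoters are from RefSeq (GRCh38.p14).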

Additional observations from a re-analysis of the deposited data

How the results depend on the processing

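All members were called lower after irradiation under every alternative, 34 to 37 of 38 with RG7388 in irradiated cells and 28 to 34 with HDM201. For RG7388 against HDM201 in irradiated cells, where 18 members were called, edgeR on the groups compared alone called 0, limma on log2(FPKM + 1) called 1 with or without a filter (median -0.53), and leaving out the 2 deepest irradiated libraries, an alternative added after seeing the data, left 1; the cause was not tested. Leaving out each library in turn gave 1 to 17 members (medians -0.9 to -0.6), the lowest without IR_HDM201 replicate 1. Other counts were 14 with log2(FPKM + 0.1), 16 to 18 with other scalings, 21 without the filter on low counts and 22 with DESeq2. None of the members whose sign turned there was called: INCENP (0.17) was -0.06 in the limma fits, and 0 without IR_HDM201 replicate 2, ESPL1 (-0.06) was 0.01 without IR_RG7388 replicate 1 and 0.02 without IR_HDM201 replicate 3, and NUSAP1 (-0.34) was 1.29 without IR_HDM201 replicate 1 and 1.16 without the 2 deepest irradiated libraries. These NUSAP1 fits rest on 0 and 3 counts in IR_HDM201 replicates 2 and 3. FPKM of NUSAP1 ranged from 1.73 to 2.11 in IR_RG7388 and from 2.18 to 3.67 in IR_HDM201.

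Without TMM (library totals), the median of all genes moved to 0.342 for irradiation, -0.222 for RG7388 and -0.169 for HDM201 in irradiated cells, and the members' medians to -2.92 for irradiation, -1.82 for RG7388 in irradiated and -0.47 in proliferating cells, with 5 members called in the last. With log2(FPKM + 1), with or without a filter, medians were -2.71 for irradiation, -1.28 for RG7388 in irradiated cells and -0.38 for the interaction. With log2(FPKM + 0.1), they were -2.9, -1.78 and, for RG7388 in proliferating cells, -0.47. Leaving out single libraries gave medians of -3.3 to -3.2 for irradiation, -1.71 to -1.58 for RG7388 and -1 to -0.73 for HDM201 in irradiated cells, and -0.78 to -0.47 for the interaction.

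In proliferating cells, 2 members were called with RG7388 and 1 with HDM201. Counts for RG7388 were 10 without the filter, 4 with a filter of 1 CPM in 3 libraries, 31 in the groups alone, 17 with DESeq2 and 0 by limma with log2(FPKM + 0.1) or without a filter. For HDM201 they were 2, 2, 0, 3 and 0, and 0 with log2(FPKM + 1). Leaving out single libraries gave 0 to 1 for RG7388 and 0 to 15 for HDM201, the highest without Prolif_HDM201 replicate 3. The interaction, with 0 members called, had 8 without the filter, 7 with DESeq2, and 0 to 4 when single libraries were left out. Leaving out IR_DMSO replicate 1 and Prolif_HDM201 replicate 3 together, also added after seeing the data, gave 20 members for HDM201 in proliferating cells (median -0.42), 8 for the interaction (median -0.8), and medians of -3.3 for irradiation and -1.71 for RG7388 in irradiated cells.

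With the replicate number as a block, 17 members were called between the compounds in irradiated cells, and the other counts were 38, 36, 32, 2, 1, 0 and 0, as without it; 8 of 18 libraries correlated best with their own number. Low counts limit NUSAP1, CENPA and CENPM. Except where stated, counts of all genes called under the alternatives are not given here. Changes in the members' counts are therefore not set against those over all genes.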

Other observations

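Of the 41 genes called lower with RG7388 than with HDM201 in irradiated cells, 18 were in none of the gene lists, and all were chosen for mention after their values were seen. They were ASF1B, RRM2, KIF2C, APOBEC3B, CCNE2, CDC6, MND1, ZNF367, WDR76, DTL, TROAP, NEIL3, TK1, PSMC3IP, EZH2, KIFC1, KIF4A and EXO1. KIF2C, KIFC1 and KIF4A are kinesin motors of the spindle and TROAP binds microtubules; EXO1 is an exonuclease and NEIL3 a glycosylase of DNA repair, TK1 is a thymidine kinase and EZH2 a histone methyltransferase. RRM2, a subunit of ribonucleotide reductase, stood at 19.5 ± 1.81 CPM with RG7388 and 36.3 ± 8.76 with HDM201 (SD, n = 3; log2 fold change -0.9, edgeR adjusted p = 0.00344), and CDC6, which licenses replication origins, at 7.01 ± 0.751 and 11.4 ± 0.518 (-0.71, edgeR adjusted p = 0.005). MND1, a partner of PSMC3IP in strand exchange, had the largest estimate of these 18 genes (-1.74, SE 0.3, edgeR adjusted p = 0.00688), at 0.389 ± 0.144 and 1.35 ± 0.398 CPM. Without IR_HDM201 replicate 1, 2 genes in all were called in this comparison. The 38 mitotic genes took 18 of the 50 smallest p-values in this comparison and 22 of the 100 smallest.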
